A study of Arabis alpina with 9 samples.

Results

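Class III peroxidase genes of the alpine perennial *Arabis alpina* were followed in dissected shoot apices of the flowering mutants *pep2-1* and *pep1-1* and of the wild type. The members were all genes whose deposited description holds the phrase "peroxidase superfamily protein", in either case of letters, and these were 52 of the 30690 genes in the table. Single members were thus selected on annotation text, while the family as a whole was taken up with earlier results of these data known, among them the reads of *PRX22* in *pep2-1* and *pep1-1*, so its values there are given as a description. An Arabidopsis class III peroxidase (*PRX*) gene was the listed ortholog of 51 members, and these stand for 50 different Arabidopsis genes because *PRX27* has both AALP_AA7G016800 and AALP_AA3G001800. The other member, AALP_AA3G005200, is the ortholog of *DOX1*, which encodes an alpha-dioxygenase of fatty acids and is not a class III peroxidase, so the label goes against its ortholog. It had 7 reads in the 9 libraries together and enters no test. A further 3 genes with a class III peroxidase ortholog (*PRX29*, *PRX45* and *PRX73*) lack the phrase and are not members.

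Class III peroxidases are secreted, heme-containing enzymes of plants that use hydrogen peroxide to oxidise phenolic compounds in the cell wall. Through this they couple lignin monomers into lignin and cross-link wall proteins and phenolics, and they can also release reactive oxygen into the wall. In shoots they are best known from the lignifying walls of xylem vessels and fibres. Members are named here after their Arabidopsis ortholog, and each role given below is known from Arabidopsis.

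The 3 groups were *pep2-1*, *pep1-1* and the wild type (WT), with 3 libraries each from plants grown for 3 weeks in 16 h of light and 8 h of dark. *PEP2* and *PEP1* are the *A. alpina* orthologs of the Arabidopsis flowering regulators *AP2* and *FLC*, both mutants came from EMS mutagenesis of the accession Pajares, and the WT is Pajares itself. The *pep2-1* plants were homozygotes chosen with a DNA marker from a segregating population, and the sources used here do not say how many plants went into a library. Libraries are called by genotype and by the replicate letter (A, B or C) of the deposited table.

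Libraries held 12871903 to 23829973 reads in genes. Reads of *PEP2* itself lay at 72.2 to 84.8 CPM (counts scaled to library size, with sizes corrected by TMM factors) in *pep2-1*, 49.7 to 61.5 CPM in *pep1-1* and 54.9 to 67.6 CPM in WT, and this level does not check the labels, since the sources used here do not say what the mutation does to the transcript. *PEP1* was not analysed here. Of 12 shoot apical meristem genes all had reads, with a summed level of 434 to 546 CPM in *pep2-1*, 329 to 453 CPM in *pep1-1* and 417 to 494 CPM in WT, although the defining *WUS* and *CLV3* stood at or near 0 in every genotype. Leaf mesophyll genes (3 in the table) were also present, with 917 to 1209 CPM in *pep1-1* and 839 to 1473 CPM in WT. In *pep2-1* they had 2112 CPM in replicate A, 988 CPM in B and 1062 CPM in C. The 13 root genes together gave 10.2 to 14.9 CPM in all libraries, most of it from *CASP4*. On the first principal component (44.4% of the variance) the replicate A libraries of *pep1-1* (-0.732) and WT (-21.1) lay nearer to the *pep2-1* libraries (-50.1, -21.8 and -32.4) than did replicates B and C of *pep1-1* (39.1 and 39.7) and of WT (25.4 and 21.9).

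The members lie on all 8 chromosomes of the *A. alpina* reference genome, with 4, 4, 5, 9, 2, 7, 8 and 12 of them on chromosomes 1 to 8 and 1 on an unplaced scaffold. Neighbours within 50 kb formed 4 pairs that hold 7 members. *PRX69*, *PRX70* and *PRX71* follow each other on chromosome 8 with gaps of 2957 and 12079 bp, *PRX1* and *PRX3* lie 19885 bp apart on chromosome 1, and *PRX43* and *PRX44* lie 32978 bp apart on chromosome 7. Neighbours differed in level. *PRX3* averaged 16.7 CPM over the 9 libraries while *PRX1* had 3 reads in all, and *PRX43* averaged 1.71 CPM while *PRX44* had no read. The sources used here do not say how reads shared by near-identical copies were assigned, and members with close paralogs are less certain.

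One gene carried most of the family's reads. *PRX42* (AALP_AA7G046800, chromosome 7 from 3945870 to 3948386) had 4692, 4183 and 4406 CPM in *pep2-1*, 3491, 2222 and 2633 CPM in *pep1-1*, and 4772, 3116 and 3076 CPM in WT (replicates A, B and C in this order, here and below). It took 80.8% to 86.6% of the family's CPM in each library, and its rank by reads among all genes lay between 2 and 8. Per length, in FPKM (fragments scaled to exon length and library size), the authors' values were 2874 in *pep2-1*, 1806 in *pep1-1* and 2365 in WT, which placed it at ranks 8, 20 and 10 of all genes. These FPKM are single values per genotype and carry no error.

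By the mean of the authors' FPKM of the 3 genotypes, 2349 for *PRX42*, the order went on with *PRX12* (145 FPKM), *PRX30* (105 FPKM), *PRX31* (90.4 FPKM), *PRX32* (66.5 FPKM), *PRX68* (60.5 FPKM), *PRX17* (24.1 FPKM), *PRX52* (22.0 FPKM), *PRX46* (18.01 FPKM) and *PRX3* (15.4 FPKM). For neighbours in this order the spread of each gene was taken as its coefficient of variation in CPM over the 3 libraries. *PRX42* and *PRX12*, and *PRX68* and *PRX17*, lay further apart than their summed spreads in every genotype. *PRX32* and *PRX68*, and *PRX46* and *PRX3*, did so in 0 genotypes, and the other 5 pairs of neighbours in 1 or 2. In total 11 members averaged over 10 FPKM, 11 between 1 and 10 FPKM, and 30 under 1 FPKM.

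**Figure D1:**
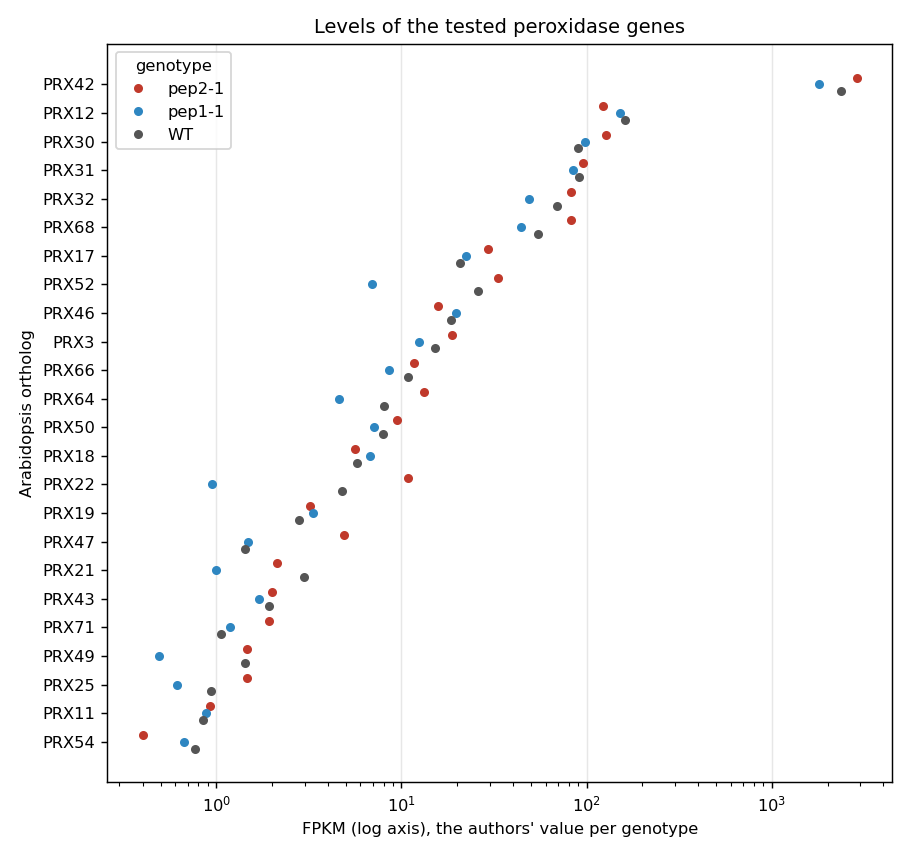
Level of the 24 tested peroxidase genes in FPKM on a log axis, ordered by the mean of the genotypes; each point is the authors' single value for *pep2-1* (red), *pep1-1* (blue) or WT (grey), with no error. *PRX42* stands alone at a mean of 2349 FPKM, and the *pep1-1* points of *PRX52*, *PRX64* and *PRX22* lie to the left of those of *pep2-1* and WT.

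Of the 52 members, 24 passed the filter on low counts and were tested, and 28 did not. Among these 28, 6 had no read in any library (*PRX44*, *PRX57*, *PRX61*, *PRX62*, *PRX65* and the *PRX27* copy on chromosome 3), which allows a level of up to 0.0222 CPM over the 9 libraries by counting error alone. Another 13 had 1 to 10 reads in all, and 9 had more, up to 78 reads for *PRX26*. The filter asks for about 0.725 CPM in at least 3 libraries. Of the 24 tested members 18 passed that level in all 9 libraries, and 23 did so in all *pep2-1* libraries, 20 in all *pep1-1* libraries and 21 in all WT libraries. Counts over the tested members are thus not counts over all members, and a member that is low in *pep1-1* could still enter through the other genotypes.

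In *pep2-1* compared with WT, 1 of the 24 tested members was called higher and 0 lower, where a call needs an adjusted p of at most 0.05 from edgeR's quasi-likelihood test over all 21713 tested genes and a log2 fold change of 1 or more in size. Over all tested genes 0.175% were called higher and 0.659% lower. At an unadjusted p under 0.05, 5 members were higher and 1 lower, against 7.42% and 7.87% of all tested genes, and DESeq2 and limma-voom called 0 members lower as well. The log2 fold change was positive for 19 of the 24, against 49.7% of all tested genes, with a median of 0.24 for the members and -0.00 for all. *PRX22*, whose reads in *pep2-1* were known when the family was taken up, is among the 19. Libraries did not overlap, with *pep2-1* higher, for 5 members (10.4% of all tested genes) and, with *pep2-1* lower, for 1 member (11.1%). In bulk tissue, fewer cells of a type and less RNA per cell cannot be told apart.

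In *pep1-1* compared with WT edgeR called 0 members in either direction, while 0.0829% of all tested genes were called higher and 0.0783% lower. DESeq2 and limma-voom also called 0, and 3 members (*PRX52*, *PRX22* and *PRX21*, each lower) had an unadjusted p under 0.05 in edgeR, against 3.56% of all tested genes that were lower and 2.81% that were higher at this p. Same-lettered libraries of these genotypes deviated together, and with the letter as a replicate block edgeR called 2 members lower, namely *PRX22* (log2 fold change -2.32, adjusted p = 0.0370) and *PRX52* (-1.91, adjusted p = 0.0450), where 0.138% of all tested genes were called lower. The members' log2 fold change was positive for 8 of 24 (49.4% of all tested genes), with a median of -0.17 for members and -0.00 for all. Libraries did not overlap, with *pep1-1* lower, for *PRX52* and *PRX22*, 2 members against 5.94% of all tested genes, and for 0 members with *pep1-1* higher (5% of all tested genes). *PRX22* is among the 3 at the unadjusted p, the 2 called with the block and the 2 without overlap. Its reads in *pep1-1* were known when the family was taken up, so these counts are given as a description.

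In *pep2-1* compared with *pep1-1*, 3 members were called higher (0.686% of all tested genes) and 0 lower (0.649%). *PRX22* is among these 3 and among the 11, 19, 12, 18 and 14 members counted below. Its reads were known when the family was taken up, so these counts are given as a description. DESeq2 and limma-voom called 0 members lower too, and at an unadjusted p under 0.05 edgeR had 11 members higher and 1 lower, against 10.1% and 8.96% of all tested genes. The log2 fold change was positive for 19 of 24 (48.6% of all tested genes), with a median of 0.52 for the members and -0.01 for all. All 3 *pep2-1* libraries lay above all 3 *pep1-1* libraries for 12 of the 24 (12.6% of all tested genes), and the reverse held for 0 members (11.5%). Each comparison shares libraries with the other pairs, so the counts are not independent of each other. By means over 3 libraries, 18 of the 24 members were highest in *pep2-1*, where 37.95% of all tested genes were, and 14 were lowest in *pep1-1*, where 32.58% of all tested genes were.

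**Figure D2:**
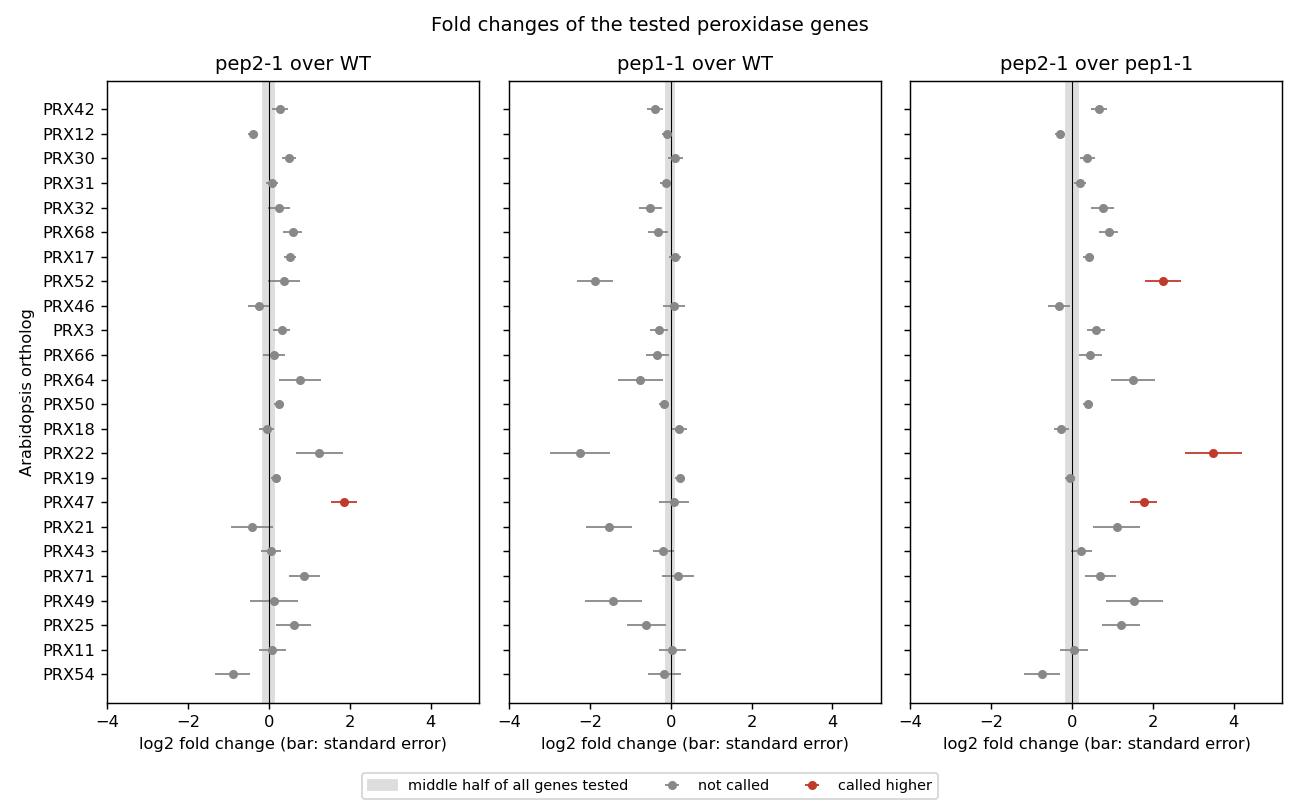
Log2 fold changes of the 24 tested peroxidase genes in the 3 comparisons of genotypes, ordered by mean FPKM; points are fold changes, bars standard errors, red points called genes, and the grey band holds the central 50% of all 21713 tested genes. *PRX47* is called in *pep2-1* over WT, no member in *pep1-1* over WT, and *PRX22*, *PRX52* and *PRX47* in *pep2-1* over *pep1-1*.

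Of the tested members linked to lignin in Arabidopsis, *PRX47* and *PRX52* were called and *PRX64*, *PRX66*, *PRX17*, *PRX71* and *PRX25* were not. *PRX72* and *PRX4*, also linked to lignin, lay below the filter and are described by their reads further on. *PRX47* (AALP_AA7G199600, chromosome 7 from 23239598 to 23241679), which in Arabidopsis acts in the lignification of xylem vessels, had 6.38, 3.71 and 5.52 CPM in *pep2-1*, 1.69, 0.938 and 1.95 CPM in *pep1-1*, and 2.04, 1.35 and 0.983 CPM in WT. Every *pep2-1* library lay above all 6 others, and those of *pep1-1* and WT overlapped. The level in *pep2-1* was 3.60-fold that in WT (log2 fold change 1.85, standard error, SE, 0.33, edgeR adjusted p = 0.0243). Against *pep1-1* it was 3.41-fold (log2 fold change 1.77, SE 0.33, edgeR adjusted p = 0.0285). In *pep1-1* over WT the log2 fold change was 0.08 (SE 0.37, edgeR adjusted p = 0.998). The call against WT held in 5 of the 9 fits that each left out 1 library. These were the fits without *pep2-1* B, without WT A, or without a *pep1-1* library, which is outside that comparison. The call against WT was lost without *pep2-1* A (1.66, adjusted p = 0.0952), *pep2-1* C (1.80, adjusted p = 0.105), WT B (1.79, adjusted p = 0.129) or WT C (1.65, adjusted p = 0.114). The call against *pep1-1* was lost without *pep2-1* A (1.59, adjusted p = 0.0966), *pep2-1* C (1.73, adjusted p = 0.0957), *pep1-1* B (1.52, adjusted p = 0.106) or *pep1-1* C (1.97, adjusted p = 0.0675). In every fit that lost either call, fewer of all tested genes were called higher in that comparison than with all 9 libraries. The same held for fits that kept a call. Without *pep2-1* B, which kept both, 23 genes were called higher over WT (38 with all libraries) and 44 over *pep1-1* (149 with all libraries).

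*PRX52* (AALP_AA8G047500, chromosome 8 from 2912856 to 2914745), needed in Arabidopsis for lignin of the interfascicular fibres of the stem, had 33.8, 38.1 and 29.2 CPM in *pep2-1*, 12.5, 2.96 and 5.63 CPM in *pep1-1*, and 38.7, 16.8 and 23.2 CPM in WT. All *pep1-1* libraries lay below all libraries of the other genotypes, and *pep2-1* and WT overlapped. In *pep2-1* it was 4.75-fold the *pep1-1* level (log2 fold change 2.25, SE 0.44, edgeR adjusted p = 0.0322). In *pep1-1* over WT the log2 fold change was -1.87 (SE 0.44, edgeR adjusted p = 0.262), which became -2.21 with an adjusted p of 0.0109 when the replicate A libraries of all genotypes were left out. In *pep2-1* over WT it was 0.37 (SE 0.40, edgeR adjusted p = 0.693). Its call in *pep2-1* over *pep1-1* held in 3 of 9 fits that left out 1 library, those without *pep1-1* A, WT A or WT B. Of these only *pep1-1* A is a library of this comparison, and without it the log2 fold change was 2.98 (adjusted p = 0.00605). Without *pep2-1* A, B or C the adjusted p was 0.0865, 0.0844 and 0.0861 with log2 fold changes of 2.24, 2.15 and 2.34. Without *pep1-1* B, *pep1-1* C or WT C it was 0.0938, 0.126 and 0.0562 with log2 fold changes of 1.88, 2.11 and 2.25. Each fit that lost the call also called fewer of all tested genes higher in *pep2-1* over *pep1-1* than did the fit with all libraries. So did the fit without WT B, which kept the call (117 genes against 149).

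*PRX64*, which lignifies the Casparian strip of the root and is also tied to sclerenchyma, did not pass the test. It had 12.0, 17.2 and 12.93 CPM in *pep2-1*, 9.68, 1.44 and 3.52 CPM in *pep1-1*, and 11.8, 4.14 and 9.62 CPM in WT. The 3 *pep2-1* libraries were the highest of the 9, and *pep1-1* A stood well above *pep1-1* B and C. Between *pep2-1* and *pep1-1* the log2 fold change was 1.51 (SE 0.55, edgeR adjusted p = 0.178). Without *pep1-1* A it was 2.51 (adjusted p = 0.0269), and without the replicate A libraries of all genotypes 2.61 (adjusted p = 0.00825), both past the threshold.

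*PRX66*, like *PRX47* tied to vessels, had 12.6, 10.3 and 11.5 CPM in *pep2-1*, 12.4, 5.85 and 6.88 CPM in *pep1-1*, and 12.5, 7.37 and 12.1 CPM in WT, so its genotypes overlapped. *PRX17*, found in lignified tissue, had 34.05, 28.2 and 25.5 CPM in *pep2-1*, 23.96, 22.3 and 20.2 CPM in *pep1-1*, and 23.1, 21.8 and 16.8 CPM in WT. All its *pep2-1* libraries lay above the other 6, but its log2 fold change of 0.51 in *pep2-1* over WT (SE 0.14) had an edgeR adjusted p of 0.127.

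*PRX71* and *PRX25* have both been linked to stem lignin through Arabidopsis mutants. *PRX71* had 1.58, 1.39 and 2.601 CPM in *pep2-1*, 1.22, 0.794 and 1.41 CPM in *pep1-1*, and 1.53, 0.901 and 0.632 CPM in WT. Its log2 fold change in *pep2-1* over WT was 0.87 (SE 0.38, edgeR adjusted p = 0.313), and limma-voom with sample weights gave 1.27 (adjusted p = 0.0418). *PRX25* had 1.01, 1.39 and 1.498 CPM in *pep2-1*, 0.948, 0.217 and 0.469 CPM in *pep1-1*, and 1.02, 0.983 and 0.492 CPM in WT. The *pep2-1* libraries of *PRX25* lay above those of *pep1-1*, with a log2 fold change of 1.21 that did not pass the test (SE 0.47, edgeR adjusted p = 0.203).

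*PRX22* (AALP_AA4G162800, chromosome 4 from 15876145 to 15878266) had the largest fold change among the tested members. It had 18.6, 8.58 and 5.75 CPM in *pep2-1*, 1.96, 0.577 and 0.313 CPM in *pep1-1*, and 8.17, 2.05 and 4.29 CPM in WT. The *pep1-1* libraries held 41 reads together, against 478 in *pep2-1* and 223 in WT, and all 3 *pep1-1* libraries lay below all others. As a description, the level in *pep2-1* was 11.2-fold that in *pep1-1* (log2 fold change 3.49, SE 0.71, edgeR adjusted p = 0.0371). The log2 fold change in *pep2-1* over WT was 1.24 (SE 0.58, edgeR adjusted p = 0.342) and in *pep1-1* over WT -2.25 (SE 0.74, edgeR adjusted p = 0.575).

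The call of *PRX22* depended on single libraries and on the test, and so did the number of all genes called higher in *pep2-1* over *pep1-1*. That number was 149 with all libraries, 39, 44 and 36 without *pep2-1* A, B or C, and 381, 21 and 37 without *pep1-1* A, B or C. Without WT A, B or C it was 237, 117 and 77. For *PRX22* replicate A was the highest library of each genotype, and *pep2-1* A alone held more than the other *pep2-1* libraries together. The call of *PRX22* held without *pep1-1* A, where the log2 fold change was 4.60 (adjusted p = 0.0234). It also held without WT A or WT B, which are outside this comparison. Without *pep2-1* A the log2 fold change was 2.86 (adjusted p = 0.105), without *pep2-1* B 3.64 (adjusted p = 0.0739), and without *pep2-1* C 3.79 (adjusted p = 0.0600). Without *pep1-1* B it was 3.22 (adjusted p = 0.145), without *pep1-1* C 3.10 (adjusted p = 0.133), and without WT C 3.49 (adjusted p = 0.0611). In limma-voom it was 3.51 with an adjusted p of 0.0604.

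**Figure D3:**
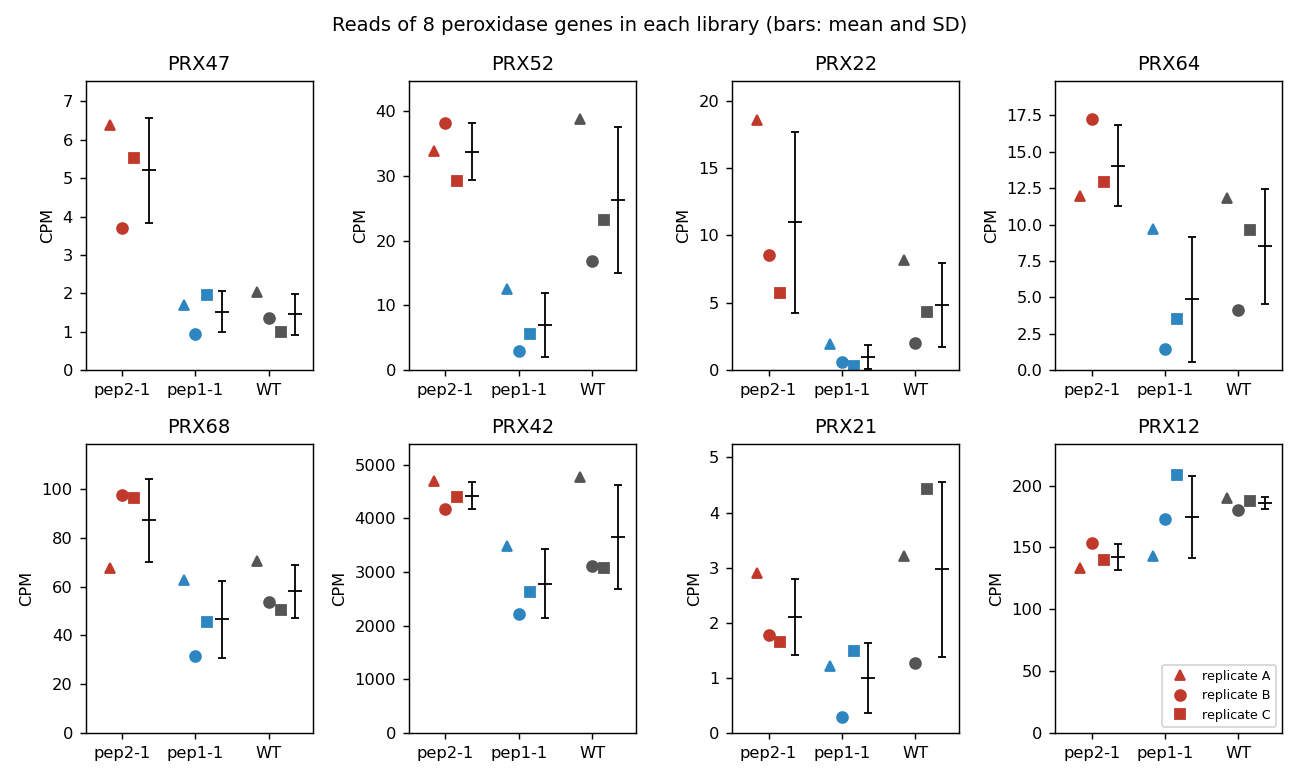
CPM of 8 peroxidase genes in each library of *pep2-1* (red), *pep1-1* (blue) and WT (grey); triangles, circles and squares are replicates A, B and C, and the black bars are means and SDs over 3 libraries. All *pep2-1* libraries of *PRX47* lie above the other 6, all *pep1-1* libraries of *PRX52* and *PRX22* lie below the other 6, and in *PRX12* the 3 *pep2-1* libraries lie below those of WT.

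*PRX42*, the member of highest level, was not called. It had a log2 fold change of 0.28 in *pep2-1* over WT (SE 0.20, edgeR adjusted p = 0.535) and -0.39 in *pep1-1* over WT (SE 0.20, edgeR adjusted p = 0.825). In *pep2-1* over *pep1-1* it was 0.67 (SE 0.20, edgeR adjusted p = 0.108), and all *pep2-1* libraries lay above those of *pep1-1*. For this comparison the adjusted p was 0.0156 in DESeq2, 0.0181 in limma-voom and 0.00490 with the replicate block in edgeR, at log2 fold changes of 0.67, 0.76 and 0.70 that stay under the size a call needs. The summed level of the other 51 members was 723, 729.5 and 723 CPM in *pep2-1*, 619, 529.8 and 564 CPM in *pep1-1*, and 758, 584 and 597 CPM in WT. Outside *PRX42* the *pep2-1* libraries were nearly equal, with a mean of 725 ± 3.76 CPM (SD, n = 3), against 571 ± 45.2 CPM in *pep1-1* and 646 ± 97.1 CPM in WT.

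*PRX68* had 67.7, 97.5 and 96.6 CPM in *pep2-1*, 62.8, 31.4 and 45.7 CPM in *pep1-1*, and 70.6, 53.6 and 50.4 CPM in WT. Its log2 fold change of 0.90 in *pep2-1* over *pep1-1* (SE 0.24, edgeR adjusted p = 0.0854) passed neither threshold. It was 1.15 in limma-voom (adjusted p = 0.0117), 1.18 without *pep1-1* A (adjusted p = 0.0232) and 1.33 without all replicate A libraries (adjusted p = 0.000779), and passed in each of these.

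*PRX32* had 104, 65.5 and 73.8 CPM in *pep2-1*, 63.8, 44.8 and 36.3 CPM in *pep1-1*, and 98.0, 54.6 and 53.3 CPM in WT, with replicate A the highest in each genotype. The *pep2-1* libraries lay above those of *pep1-1* (log2 fold change 0.75, SE 0.28, edgeR adjusted p = 0.189). *PRX30* had 138, 130.4 and 144 CPM in *pep2-1*, 131, 107.5 and 79.5 CPM in *pep1-1*, and 120.1, 92.5 and 81.0 CPM in WT. All *pep2-1* libraries of *PRX30* lay above those of WT, with a log2 fold change of 0.49 (SE 0.18, edgeR adjusted p = 0.236).

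*PRX12*, second in the family by FPKM, had the opposite order of *pep2-1* and WT. It had 133, 153 and 139.7 CPM in *pep2-1*, 143, 173 and 209 CPM in *pep1-1*, and 189.9, 180.5 and 187.8 CPM in WT. All *pep2-1* libraries lay below those of WT, the only member of the 24 for which this held, yet the log2 fold change of -0.39 did not pass (SE 0.12, edgeR adjusted p = 0.174). *PRX31* (84.2 to 106 CPM in *pep2-1*, 73.9 to 94.6 CPM in *pep1-1*, 78.5 to 113.5 CPM in WT) and *PRX46* (11.25 to 17 CPM in *pep2-1*, 12.2 to 23.3 CPM in *pep1-1*, 12.4 to 21.3 CPM in WT) overlapped in all comparisons.

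*PRX3*, known in Arabidopsis as the cold-inducible *RCI3*, had 28.1, 17.6 and 15.1 CPM in *pep2-1*, 15.8, 13.2 and 11.3 CPM in *pep1-1*, and 18.4, 16.3 and 14.7 CPM in WT. The genotypes overlapped and replicate A was the highest in each. Its log2 fold change in *pep2-1* over WT was 0.31 (SE 0.22, edgeR adjusted p = 0.533), and without *pep2-1* A it was -0.013 (adjusted p = 0.985).

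Among members at a few CPM, *PRX21* had 2.91, 1.78 and 1.66 CPM in *pep2-1*, 1.22, 0.289 and 1.48 CPM in *pep1-1*, and 3.21, 1.27 and 4.43 CPM in WT. Its log2 fold change in *pep1-1* over WT was -1.53 (SE 0.56, edgeR adjusted p = 0.678), with 41 reads in *pep1-1* and 138 in WT. *PRX49* had 1.14, 1.86 and 1.03 CPM in *pep2-1*, 0.745, 0.433 and 0.156 CPM in *pep1-1*, and 2.48, 0.409 and 1.05 CPM in WT. Its *pep2-1* libraries lay above those of *pep1-1* (log2 fold change 1.53, SE 0.71, edgeR adjusted p = 0.276), and WT spanned both. *PRX54* went the other way, with 0.569, 1.082 and 0.552 CPM in *pep2-1*, 1.76, 0.866 and 1.02 CPM in *pep1-1*, and 1.82, 0.860 and 1.55 CPM in WT. Its log2 fold change in *pep2-1* over WT was -0.90 (SE 0.43, edgeR adjusted p = 0.358) and the libraries overlapped. The tested members not yet described, *PRX11*, *PRX18*, *PRX19*, *PRX43* and *PRX50*, averaged 1.23, 5.54, 10.2, 1.71 and 8.44 CPM over the 9 libraries and were called in no comparison. Libraries of *PRX50* lay higher in *pep2-1* (9.04 to 10.6 CPM) than in *pep1-1* (6.64 to 7.73 CPM) and WT (7.49 to 8.68 CPM). Its log2 fold changes were 0.40 over *pep1-1* (SE 0.12, edgeR adjusted p = 0.126) and 0.24 over WT (SE 0.12, edgeR adjusted p = 0.381). The rest overlapped in every comparison.

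**Figure D4:**
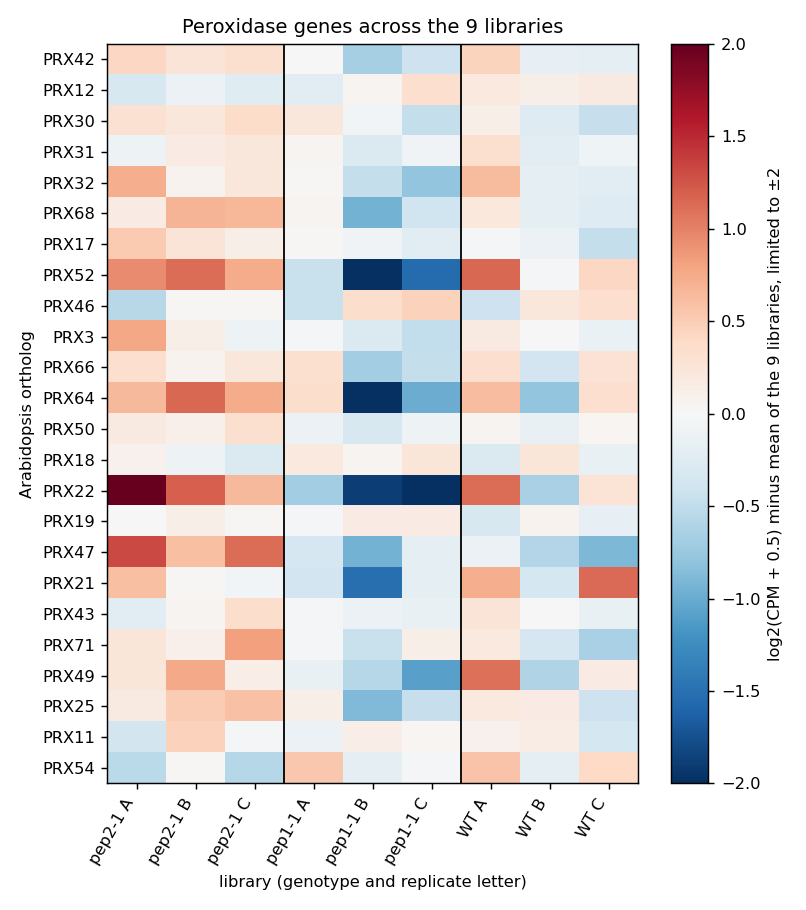
Level of the 24 tested peroxidase genes in each library, as log2(CPM + 0.5) minus the gene's mean over the 9 libraries, limited to ±2 for the colour scale; red is above and blue below that mean. The *pep2-1* columns are mostly red, the columns of *pep1-1* B and C mostly blue, and WT A is redder than WT B and C.

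Replicate A stood apart in this family. WT A was the highest WT library for 19 of the 24 members (40.93% of all tested genes), and *pep1-1* A was the highest *pep1-1* library for 15 (36.01% of all tested genes). For *pep2-1* A the count was 9 (37.14% of all tested genes). Without the replicate A libraries of all genotypes edgeR called 1 member higher in *pep2-1* over WT (*PRX47*, against 1.47% of all genes tested in that fit), 1 lower in *pep1-1* over WT (*PRX52*, against 0.157%), and 5 higher in *pep2-1* over *pep1-1* (*PRX22*, *PRX52*, *PRX47*, *PRX64* and *PRX68*, against 2.24%). Without *pep1-1* A alone it called 6 of 25 tested members higher in *pep2-1* over *pep1-1*, the same 5 and *PRX72*, against 1.74% of all genes tested in that fit. *PRX72* lay below the filter with all 9 libraries, and the filter asks for fewer libraries when a library is left out. It passed through libraries of other genotypes, with 0 reads in *pep1-1* B and C, so its call is no added support. *PRX22* is among the 5 and the 6, so these counts too are a description. The labels give no batch or date, and what sets replicate A apart was not tested.

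Members below the filter are described by their reads. *PRX72*, a lignin peroxidase of the Arabidopsis stem, had 12, 9 and 9 reads in *pep2-1*, 4, 0 and 0 in *pep1-1*, and 12, 6 and 3 in WT. *PRX39* had 7, 11 and 8 reads in *pep2-1*, 2, 1 and 1 in *pep1-1*, and 7, 2 and 2 in WT. *PRX9*, which with *PRX40* cross-links wall proteins of the anther tapetum, had 4, 6 and 4 reads in *pep2-1*, 0, 1 and 1 in *pep1-1*, and 5, 4 and 1 in WT. These 3 were picked after their reads were seen, and in each the *pep1-1* total was the smallest, at 4, 4 and 2 reads. Others went the other way, among them *PRX10* (1 read in *pep2-1*, 7 in *pep1-1* and 5 in WT) and *PRX13* (1, 3 and 1). Together the 28 untested members had 174 reads in *pep2-1*, 64 in *pep1-1* and 165 in WT. Scaled to library size, their sum averaged 4.19, 1.54 and 3.27 CPM in the same order. *PRX40* had 6 reads in the 9 libraries, *PRX36*, which loosens the outer wall of seed coat cells, had 2, and *PRX4*, a lignin peroxidase of the Arabidopsis stem, and *PRX37* had 1 each.

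Other genes of lignin synthesis and of the xylem were read beside the peroxidases. Of 15 tested monolignol synthesis genes, which make the alcohols that peroxidases couple, 0 were called by edgeR in any comparison, and 0 by DESeq2 and limma-voom except *F5H1*, the ferulate 5-hydroxylase gene, in *pep2-1* over *pep1-1*. In that comparison edgeR too called *F5H1* with the replicate block (log2 fold change 1.099, adjusted p = 0.00150), with library size alone, with no low-count filter and without WT A (adjusted p 0.0267 to 0.0484), and it called *COMT1*, for a methyltransferase of the pathway, without *pep1-1* A (1.01, adjusted p = 0.0131). At an unadjusted p under 0.05, 9 of the 15 were higher in *pep2-1* than in WT and 9 were higher in *pep2-1* than in *pep1-1*, with 0 lower, and 0 differed at this p in *pep1-1* over WT. Over all tested genes 7.42% were higher at this p in *pep2-1* over WT and 10.1% in *pep2-1* over *pep1-1*. These shares apply to the lists below too. The median log2 fold changes of the monolignol genes were 0.37 in *pep2-1* over WT, 0.01 in *pep1-1* over WT and 0.42 in *pep2-1* over *pep1-1*. *F5H1* had 58.1, 33.3 and 37.8 CPM in *pep2-1*, 23.02, 16.5 and 19.8 CPM in *pep1-1*, and 37.7, 25.1 and 19.7 CPM in WT. *PAL1*, for the first enzyme of the phenylpropanoid pathway, had 166, 157 and 185 CPM in *pep2-1*, 138, 104 and 89.4 CPM in *pep1-1*, and 123, 109 and 111 CPM in WT. The *pep2-1* libraries of *PAL1* lay above the other 6.

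Laccases, copper enzymes that also polymerise monolignols, gave 0 calls by edgeR among 9 tested genes. In *pep2-1* over *pep1-1* the median log2 fold change was 0.64, with 5 genes at an unadjusted p under 0.05. Of these 4 were higher and 1 lower, against 10.1% and 8.96% of all tested genes. In *pep2-1* over WT the median was 0.35 with 1 gene at this p, and in *pep1-1* over WT -0.16 with 2. *LAC12* was called lower in *pep1-1* over WT and higher in *pep2-1* over *pep1-1* by DESeq2, and limma-voom called *LAC10* and *LAC11* higher in the second of these comparisons. Without the replicate A libraries of all genotypes edgeR called all of *LAC10*, *LAC11* and *LAC12* higher in *pep2-1* over *pep1-1* (log2 fold changes 1.41, 1.43 and 3.72), as it did without *pep1-1* A alone, and with the replicate block it called *LAC12* (2.69, adjusted p = 0.0219). *LAC12* had 5.56, 7.81 and 5.28 CPM in *pep2-1*, 2.03, 0.217 and 0.781 CPM in *pep1-1*, and 5.76, 1.80 and 7.17 CPM in WT. As with *PRX52*, all *pep2-1* libraries lay above those of *pep1-1*.

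Xylem and secondary wall markers, 14 of them in the table, summed to 342, 325 and 309 CPM in *pep2-1*, 309.6, 172 and 193 CPM in *pep1-1*, and 307, 206 and 279.8 CPM in WT, and each had reads. Of the 13 tested, 12 had a positive log2 fold change in *pep2-1* over *pep1-1* (median 0.62), against 48.6% of all tested genes. In this comparison 6 had an unadjusted p under 0.05, all higher, against 10.1% of all tested genes that were higher. By edgeR, DESeq2 or limma-voom 0 were called. In *pep2-1* over WT the median was 0.33 with 1 gene at this p, and in *pep1-1* over WT -0.22 with 0. Without the replicate A libraries of all genotypes edgeR called 2 of them higher in *pep2-1* over *pep1-1*, the xylem protease genes *XCP1* (log2 fold change 1.105, adjusted p = 0.00103) and *XCP2* (1.13, adjusted p = 0.00214). Like *PRX22*, *PRX32* and *PRX52*, the list was high in the replicate A library of WT and of *pep1-1*. This was not particular to xylem. The meristem, phloem, monolignol and laccase lists and the peroxide removal list described below were also highest there within each genotype. The trichome list was lowest there, and the root, leaf mesophyll, NADPH oxidase, suberin and defence lists were not highest in both. The part of the xylem list in the peroxidase results was not tested. Phloem markers (5 tested, 0 called by the same tools, and 3, 0 and 2 at an unadjusted p under 0.05 in *pep2-1* over WT, *pep1-1* over WT and *pep2-1* over *pep1-1*) summed to 275 to 303 CPM in *pep2-1*, 200.2 to 252 CPM in *pep1-1* and 187.5 to 233 CPM in WT. Trichome markers (5 tested, 0 called, and 1, 0 and 2 at this p in the same comparisons) summed to 81.8 to 109 CPM in *pep2-1*, 109 to 153 CPM in *pep1-1* and 103.5 to 147 CPM in WT. Of the root genes 4 were tested and 0 called by edgeR, with 0, 2 and 3 at this p in the same comparisons. *ESB1*, which like *PRX64* acts at the Casparian strip, had 46 reads in *pep2-1*, 5 in *pep1-1* and 40 in WT, and DESeq2 called it higher in *pep2-1* over *pep1-1* (log2 fold change 3.18, adjusted p = 0.0205). *CASP1* had 31 reads in *pep2-1*, 4 in *pep1-1* and 24 in WT. The part of these in the peroxidase results was not tested either.

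**Figure D5:**
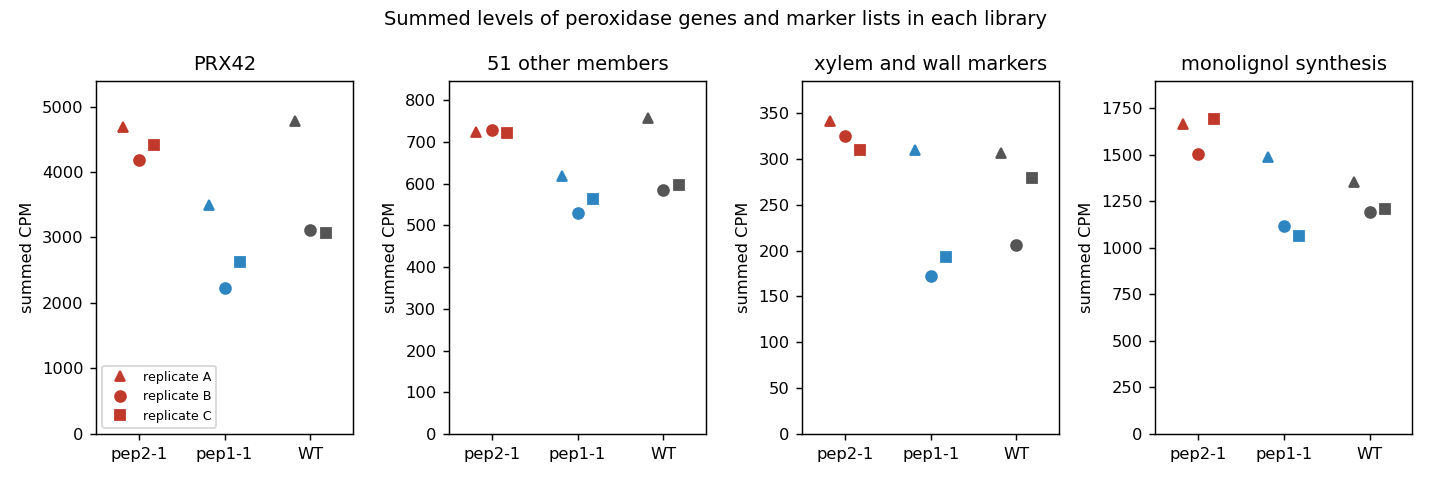
Summed CPM in each library for *PRX42*, the 51 other members, 14 xylem and secondary wall markers and 16 monolignol synthesis genes; triangles, circles and squares are replicates A, B and C of *pep2-1* (red), *pep1-1* (blue) and WT (grey). In the xylem markers *pep1-1* A (309.6 CPM) lies with the *pep2-1* libraries and *pep1-1* B and C (172 and 193 CPM) are the lowest.

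For genes that supply or remove hydrogen peroxide, medians cover members that went both ways. NADPH oxidase genes, which feed hydrogen peroxide into the wall space, had 4 tested members with median log2 fold changes of 0.05, 0.05 and 0.02 in *pep2-1* over WT, *pep1-1* over WT and *pep2-1* over *pep1-1*. The 15 tested genes of intracellular peroxide removal (ascorbate peroxidases, catalases and glutathione peroxidases, which are other enzyme families) had medians of -0.04, -0.02 and -0.02 in the same order. The summed level of this list was 2722 to 3283 CPM in *pep2-1*, 1569 to 2518 CPM in *pep1-1* and 1833 to 3339 CPM in WT. Its largest part was the catalase gene *CAT3*, with 2256, 1764 and 2008 CPM in *pep2-1*, 1600, 720 and 1208 CPM in *pep1-1*, and 2288, 948 and 995 CPM in WT. *RBOHD*, the NADPH oxidase gene with the most reads, had 48.2, 50.9 and 51.6 CPM in *pep2-1*, 43.1, 43.7 and 46.2 CPM in *pep1-1*, and 38.4, 34.4 and 36.2 CPM in WT, with no overlap between genotypes, and a log2 fold change of 0.47 in *pep2-1* over WT (edgeR adjusted p = 0.0134) that was too small for a call. None of these genes was called by edgeR, DESeq2 or limma-voom, and at an unadjusted p under 0.05 each list had 1 gene per comparison, or 2 for peroxide removal in *pep2-1* over *pep1-1*. Of the suberin genes 2 were tested and of the defence genes 3, also with 0 calls by these tools. At an unadjusted p under 0.05 the suberin genes had 0, 1 and 1 and the defence genes 2, 0 and 1 in the same order of comparisons.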

How the data were processed

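PolyA RNA of dissected shoot apices was read as 100 bp single-end reads, mapped with TopHat and quantified with CuffDiff by the authors. The sources used here do not give versions, annotation or strand. The deposited raw reads per gene and library are taken as estimated counts, because 64 genes (0 members) have fractional values, and were rounded. The deposited FPKM are the authors' single values per genotype and served only to order genes by level, in place of the FPKM per library that had been planned. A further 18 columns of values per library, and the authors' fold changes, p-values and q-values, were not used. The labels number replicates and the table letters them, so libraries were matched by genotype only. Coordinates were taken from the table, with its 0-based start raised by 1.

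Genes were filtered with filterByExpr (minimum count 10, minimum total 15), which left 21713 genes, and tested with the quasi-likelihood test of edgeR 4.0.16 in R 4.3.3 on all 9 libraries, with TMM factors of 0.981 to 1.03 and Benjamini-Hochberg adjustment over the tested genes. Standard errors were computed as the log2 fold change divided by the root of F. The study's methods call the 3 libraries of a genotype biological replicates, without saying how plants were divided among them. The steps were tested on simulated data. Of 100 genes set to change by a log2 fold change of 1.5 in size, chosen above a minimum level, 93, 90 and 91 were found in *pep2-1* over WT, *pep1-1* over WT and *pep2-1* over *pep1-1*. The false calls numbered 9, 10 and 7. The simulated libraries were independent and had no effect of the replicate letter, so they do not bear on how calls depend on replicate A. Alternatives were DESeq2 1.42.0 (size factors and Wald test), limma-voom (3.58.1) with sample weights, library size alone, no filter, 6 libraries, adjusted p alone, the replicate letter as a block, and leaving out each library or all replicate A libraries. Deviations from the genotype means correlated between same-lettered libraries of *pep1-1* and WT (0.537, 0.33 and 0.234 for A, B and C). A pairing of these was read from the data alone, since the sources used here do not state one. The edgeR test on all 9 libraries therefore has no block, and the replicate block is given as an alternative. Deviations did not correlate in every pair of *pep2-1* and WT (0.415, 0.286 and 0.00125) or of *pep2-1* and *pep1-1* (0.273, 0.0485 and -0.00473).

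Named members are those called in a comparison, the 5 with the largest fold change in each comparison at a mean of at least 1 CPM, the 10 with the highest mean FPKM, and members with a well-known Arabidopsis ortholog. Others were named after their values were seen. The members, gene lists and tests were chosen with earlier results of these data known, so no result here is independent support for those. Lists were matched through the table's orthologs and described by counts and medians.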

Additional observations from a re-analysis of the deposited data

How the results depend on the processing

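The counts of called peroxidase genes kept their value with DESeq2 size factors, library size alone, the DESeq2 Wald test, no low-count filter, only the 6 libraries compared, and adjusted p alone. In *pep2-1* over WT, 1 member was called, against 2 with limma-voom and 2 with the replicate block, which added *PRX22* (log2 fold change 1.23, adjusted p = 0.0304 from edgeR), and 0 to 1 with single libraries left out. The fits without a single library called 7 to 146 of all genes tested in them higher in this comparison. In *pep1-1* over WT, 0 members were called, against 2 with the replicate block, 1 without the replicate A libraries of all genotypes, and 0 in every fit without a single library. In *pep2-1* over *pep1-1*, 3 members were called, and also 3 with the replicate block, against 5 without the replicate A libraries and 0 to 6 with single libraries left out. The 6 include *PRX72*, which lay below the filter with all 9 libraries. In this comparison the fits without a single library called 21 to 381 of all genes tested in them higher. Counts that include *PRX22* are given as a description. The block changed no other call of a named member. The alternatives gave 714 log2 fold changes of named members, most for a member and comparison with no call to lose. Of the 714, 679 kept their direction and side of the threshold, 10 newly passed it, 21 no longer passed it and 4 changed sign. All 21 losses fell on the calls of *PRX47*, *PRX52* and *PRX22*. The 4 changes of sign lay near 0 in fits without a single library. *PRX3* in *pep2-1* over WT ranged from -0.013 to 0.48, and *PRX47* in *pep1-1* over WT from -0.13 to 0.35. Over all tested genes 38 were called higher and 143 lower in *pep2-1* over WT, against 98 and 189 with DESeq2, 378 and 277 with limma-voom and 191 and 208 with the replicate block. In *pep2-1* over *pep1-1* 149 were higher and 141 lower, against 304 and 178 with DESeq2, 367 and 201 with limma-voom and 427 and 236 with the block, so the share of all genes called, beside which the members' counts are read, depends on the test. The cause of these changes was not tested. With 3 libraries per genotype and under 100 reads per genotype for *PRX11*, *PRX25*, *PRX43*, *PRX49*, *PRX54* and *PRX71*, differences of these genes may not be detectable at this depth.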
